A study of Mus musculus with 2 samples.

Results

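The 9 adipogenic genes described here are Adipoq, Lpl, Pparg, Cebpa, Cebpb, Fabp4, Apoe, Plin1 and Cd36, chosen by name from the 32285 genes of the annotation. They were followed through CD45- cells sorted from aged mouse bone and marrow. Their transcripts were counted in 9573 barcodes, of 11056 in all, that had at least 200 genes and at most 20% mitochondrial unique molecular identifiers (UMIs, each standing for a captured transcript). The class in question, LEPR stromal cells, held the 1877 barcodes with at least 1 Lepr UMI and Cxcl12 at 5000 CPM or more (UMIs of a gene per 1000000 UMIs), 19.6% of those kept. It was set against 94 fibroblast-like, 60 endothelial-like, 6572 erythroid-like and 96 megakaryocyte-like cells, each defined by a list of marker genes that holds none of the 9. Of the LEPR stromal cells 425 also passed the fibroblast list, 34 the erythroid, 3 the megakaryocyte and 2 the endothelial list, and they stayed in the class. A further 857 barcodes passed no list and 17 passed several, and these were left out of the comparisons.

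The cells came from the digested femur and tibia, bone and marrow together, of 3 untreated male INK-ATTAC mice aged 24 months, pooled into 1 sample. These mice carry an inducible caspase 8 under the p16Ink4a promoter, a means of removing p16-positive cells that stayed uninduced in these animals. Cells of the blood lineages were depleted on magnetic beads, and live CD45- cells were sorted and run on 10x Chromium 3′ chemistry. The labels number the deposited libraries as replicates 1 and 2, but 10928 of the 11056 barcodes occurred in each. They are therefore called lanes here and treated as reads of the same droplets, with their counts summed. There is no biological replicate, and no p-value or standard error can be given. Cells of 1 pool are not replicates of a condition, and every 95% interval below covers counting error only, on the mean of the lanes.

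Leptin receptor stromal cells line the marrow sinusoids, secrete Cxcl12 and are a source of both osteoblasts and marrow fat cells. Adipogenesis is driven by a cascade of transcription factors in which C/EBPβ and C/EBPδ act early and induce PPARγ and C/EBPα, which keep each other on and switch on the genes of the fat cell: the hormone adiponectin, lipases, fatty acid carriers and proteins that coat the lipid droplet. In marrow, much of this programme is known to be on in stromal cells that hold no visible lipid. Several of the same genes serve other cells, Fabp4 and Cd36 being well known in capillary endothelium.

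Since the C/EBP factors are members of the set and their recognition sequence is well defined, the promoters of the members were searched for it. RefSeq windows (GRCm38.p6) of 300 bases, from 250 before to 50 after each start site, were at hand for 7 members in 11 windows, and Lpl and Fabp4 had no entry. The core TTGCNNAA, read on both strands, stood in 2 of the 11 windows and in 10.8% of all 32851 windows. The 3 windows below are shown because they carry the matches (capitals) or belong to Adipoq, the member with the largest estimated ratio to fibroblast-like cells: the third Pparg start site at chr6:115421816-115422115 (plus strand), Plin1 at chr7:79732727-79733026 (minus strand) and Adipoq at chr16:23146286-23146585 (plus strand), each 5′ to 3′.
Pparg: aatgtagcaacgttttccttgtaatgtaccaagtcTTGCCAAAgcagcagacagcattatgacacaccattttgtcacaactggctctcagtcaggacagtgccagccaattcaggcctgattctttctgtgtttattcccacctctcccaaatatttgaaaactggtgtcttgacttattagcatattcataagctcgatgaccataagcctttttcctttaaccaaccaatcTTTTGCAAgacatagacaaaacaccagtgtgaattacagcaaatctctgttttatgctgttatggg
Plin1: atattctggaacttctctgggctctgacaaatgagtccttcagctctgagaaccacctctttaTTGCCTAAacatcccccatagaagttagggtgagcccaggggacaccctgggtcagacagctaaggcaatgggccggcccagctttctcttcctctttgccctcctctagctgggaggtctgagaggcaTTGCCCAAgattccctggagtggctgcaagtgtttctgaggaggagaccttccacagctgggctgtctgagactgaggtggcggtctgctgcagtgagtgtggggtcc
Adipoq: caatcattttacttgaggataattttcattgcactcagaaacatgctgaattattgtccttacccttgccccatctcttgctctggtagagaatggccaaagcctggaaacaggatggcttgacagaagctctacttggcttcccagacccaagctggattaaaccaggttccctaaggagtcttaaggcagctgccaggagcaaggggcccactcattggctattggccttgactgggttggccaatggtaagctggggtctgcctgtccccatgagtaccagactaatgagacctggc
In the Pparg window the matches began 215 and 16 bases before the start site, and in the Plin1 window 187 and 58 bases before it. A match is a description of the letters and not a bound site, and a window without these letters says nothing about the factor. The 3′ reads used here cannot tell which Pparg start site a transcript came from.

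The class was set beside a list of 12 LEPR stromal genes, which holds neither gate gene. Leading genes of these data were known when the list was chosen, so the outcome is a description and no independent check. All 12 were at least 2-fold higher than in endothelial-like, erythroid-like and megakaryocyte-like cells, and 10 of 12 were so against fibroblast-like cells. The shares of all genes are given with the members' counts below, and some of the 12 rest on few or no UMIs in the other classes, as Il7, Hp, Grem1 and Serpina12 had none in endothelial-like cells. Their summed level was 13879 CPM in LEPR stromal cells and 2310 CPM in fibroblast-like cells. Of 14 markers of mature fat cells 7 had a UMI, together 37.7 CPM, beside 45.5 CPM in fibroblast-like and 9.09 CPM in erythroid-like cells. Of 4 tested against fibroblast-like cells 2 were at least 2-fold higher, 1 was lower and 1 was within 2-fold. The higher were Slc2a4, the insulin-responsive glucose transporter, at 12.1 CPM, and Adrb3, a beta-adrenergic receptor, at 8.28 CPM. Fibroblast-like cells had 1.14 and 2.27 CPM of these, each under 3 counts. The lower was Car3, at 9.40 CPM against 35.3 CPM. Lep, Cidea, Cidec, Plin5, Adig, Pck1 and Ucp1 were at 0, which allows each up to 0.686 CPM. Whether any fat cells entered the droplets was not tested. At the edge of the gate, the 39 cells with Lepr and Cxcl12 of 4000 to 5000 CPM had Adipoq at 249 CPM and Lpl at 509 CPM, and the 33 cells just inside it, at 5000 to 6000 CPM, had 272 CPM and 1243 CPM. The 124 cells with Cxcl12 past the gate and no Lepr UMI had Adipoq at 717 CPM, Fabp4 at 2683 CPM and Cd36 at 465 CPM.

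Of the secreted proteins, Adipoq and Apoe were each found in most LEPR stromal cells. Adipoq (ENSMUSG00000022878, chromosome 16, 23146536 to 23158028, plus strand) encodes adiponectin. It gave 6053 UMIs in lane 1 and 6298 in lane 2, or 1149 CPM (interval 1121 to 1178), with a UMI in 83.9% of LEPR stromal cells. Every other class lay far lower: 17.1 CPM in fibroblast-like, 14.7 in megakaryocyte-like, 4.58 in endothelial-like and 3.03 in erythroid-like cells, and the intervals of neighbours in that order overlapped. The log2 ratio to fibroblast-like cells was 6.07 (interval 5.06 to 7.33), a 67.3-fold difference, and that to erythroid-like cells 8.57 (8.41 to 8.73). The ratio to fibroblast-like cells depended on the gate: it was 3.39 when 2 Lepr UMIs were asked for, 3.88 in cells thinned to 1000 UMIs and 9.28 with clusters in place of gates. Against endothelial-like cells it rests on 1 UMI in lane 2, and its log2 of 7.97 has an interval of 4.75 to 18.0.

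Apoe (ENSMUSG00000002985, chromosome 7, 19696109 to 19699188, minus strand), the apolipoprotein through which cells take up lipoprotein remnants, was detected in 94.0% of LEPR stromal cells. The level was 3058 CPM in lane 1 and 3097 CPM in lane 2, with a mean of 3078 CPM (3031 to 3125). It was the member with the most graded pattern, since fibroblast-like cells had 881 CPM, endothelial-like cells 371, megakaryocyte-like cells 44.6 and erythroid-like cells 13.8, with no overlap between neighbours. The LEPR stromal class was thus 3.49-fold above the fibroblast-like class (log2 1.80, interval 1.66 to 1.95) and 8.30-fold above the endothelial-like class. In cells thinned to 1000 UMIs the log2 ratio to fibroblast-like cells was 1.09.

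Lpl (ENSMUSG00000015568, chromosome 8, 68880491 to 68907448, plus strand), the lipase that frees fatty acids from circulating triglyceride, was the most widely detected member, with a UMI in 94.9% of the class. It stood at 2667 CPM in lane 1 and 2647 CPM in lane 2, a mean of 2657 CPM (2613 to 2701). Fibroblast-like cells, at 260 CPM, and endothelial-like cells, at 252 CPM, could not be ordered, and both lay below the stromal class, by a log2 of 3.35 (interval 3.09 to 3.63) and 3.40 (2.86 to 4.00). The ratio to fibroblast-like cells was 2.58 when 2 Lepr UMIs were asked for and 4.22 with clusters in place of gates. Lpl works on the vessel wall, where Gpihbp1, a protein of endothelial cells, anchors it, and Gpihbp1 had the reverse distribution, 920 CPM in endothelial-like and 1.02 CPM in LEPR stromal cells.

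**Figure D1:**
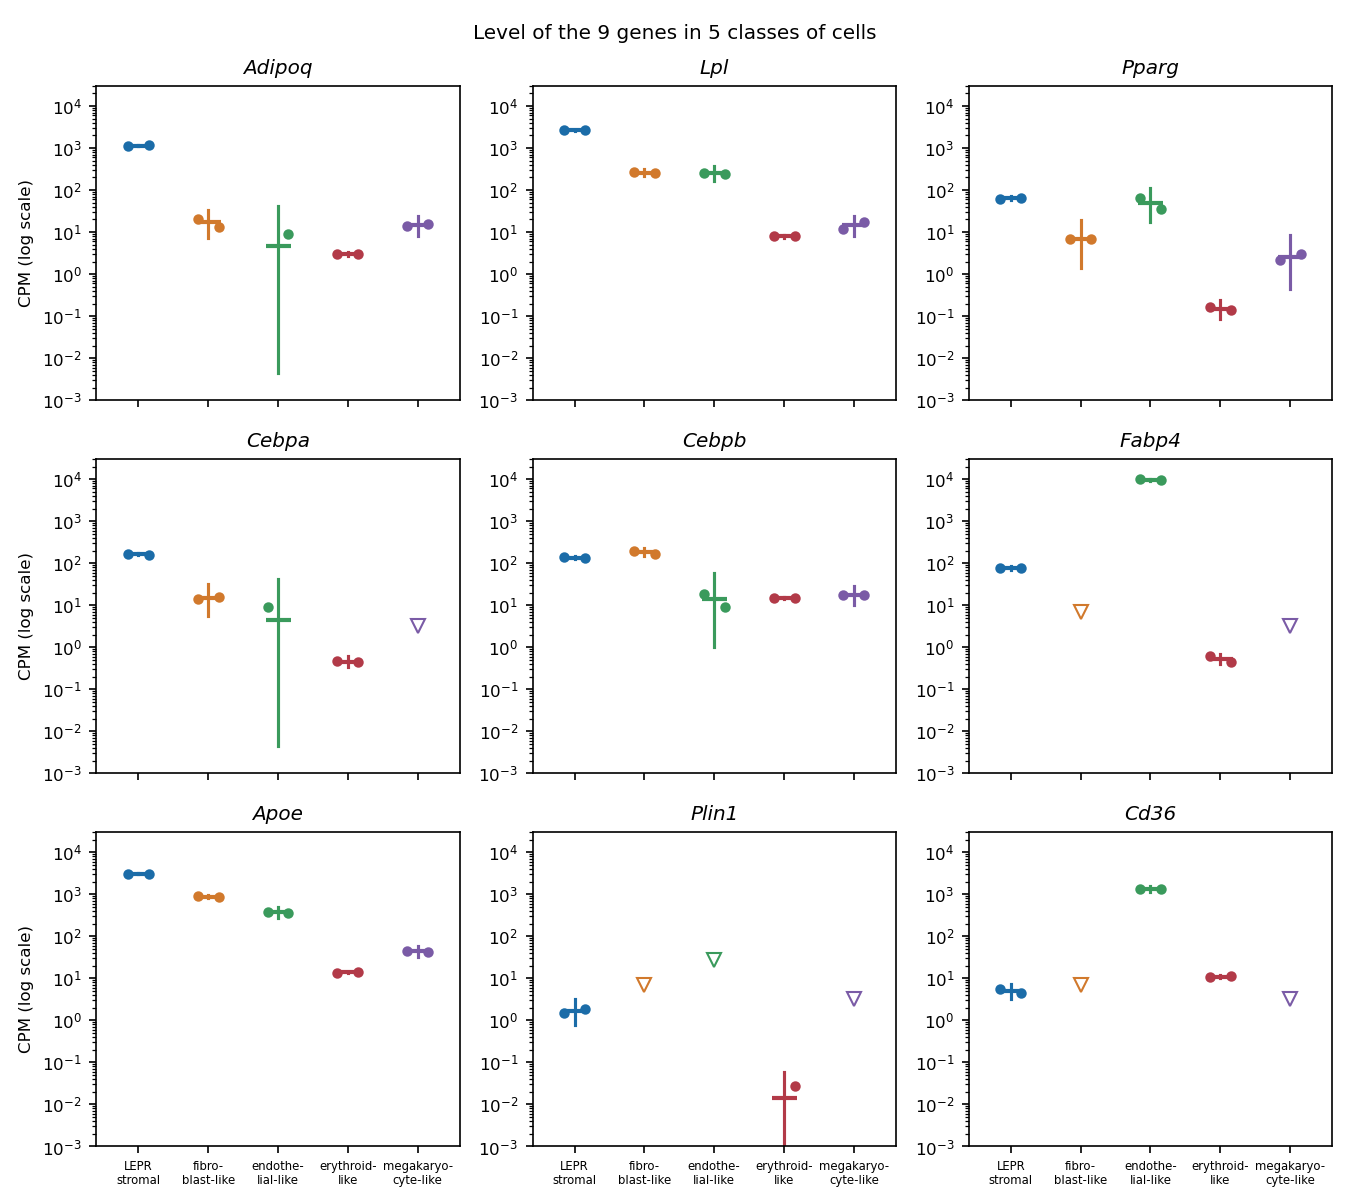
Level of each of the 9 genes in 5 classes of cells, in CPM on a log scale. The small points are the lanes, the bars their mean with the 95% counting interval, and open triangles mark the level that 3 counts would give where a class had no UMI. Adipoq, Lpl, Cebpa and Apoe are highest in LEPR stromal cells, Fabp4 and Cd36 in endothelial-like cells, and Cebpb in fibroblast-like cells.

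Of the transcription factors, Pparg and Cebpa were higher in LEPR stromal than in fibroblast-like cells and Cebpb was not. Pparg (ENSMUSG00000000440, chromosome 6, 115360951 to 115490399, plus strand), the nuclear receptor that commits cells to fat, gave 330 and 360 UMIs in the lanes, or 64.2 CPM (57.6 to 71.3), and was seen in 20.4% of LEPR stromal cells. In the order of its levels, neighbouring classes overlapped down to megakaryocyte-like cells, at 2.63 CPM, and erythroid-like cells, at 0.151 CPM, lay below all others. Endothelial-like cells had 50.4 CPM of Pparg from 11 UMIs, and the stromal class did not differ from them beyond counting error (log2 0.35, interval -0.83 to 1.89). Against fibroblast-like cells the log2 ratio was 3.23 (1.67 to 5.52) with 3 UMIs in each lane on the fibroblast side. Gm44079 overlaps Pparg on the other strand.

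Cebpa (ENSMUSG00000034957, chromosome 7, 35119293 to 35121928, plus strand), its partner in the mature programme, gave 879 and 878 UMIs, or 163 CPM (153 to 175), with a UMI in 45.4% of the class. No other class came near it: fibroblast-like cells had 14.8 CPM, a log2 of 3.47 lower (2.38 to 4.85), erythroid-like cells 0.456 CPM, and megakaryocyte-like cells none, so that the stromal class was at least 51.9-fold higher. Endothelial-like cells had 1 Cebpa UMI, and the log2 ratio of 5.16 has an interval of 1.93 to 15.2.

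Cebpb (ENSMUSG00000056501, chromosome 2, 167688915 to 167690418, plus strand), the early factor, which also answers to stress and cytokines, departed from the other factors. Its level was 137 CPM and 131 CPM in the lanes of the stromal class and 199 CPM and 168 CPM in fibroblast-like cells, which were thus higher by 1.36-fold (log2 of stromal over fibroblast-like -0.45, interval -0.78 to -0.10). With the cells of lane 1 thinned to 1000 UMIs the sign turned, to 0.13 with an interval of -0.67 to 1.06. Erythroid-like, megakaryocyte-like and endothelial-like cells had 14.7, 17.3 and 13.7 CPM, with intervals that overlapped. Gm45091 and Tmem189 lie on the other strand over Cebpa and Cebpb.

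The carriers and droplet proteins behaved differently again. Fabp4 (ENSMUSG00000062515, chromosome 3, 10204088 to 10208576, minus strand), a fatty acid carrier of fat cells and capillaries, was 9704 CPM in endothelial-like cells (9926 and 9490 in the lanes) and 75.9 CPM in LEPR stromal cells (75.7 and 76.1), 128-fold lower. Only 144 stromal cells, 7.67%, had a Fabp4 UMI. Fibroblast-like and megakaryocyte-like cells had none, so that the stromal class was at least 11.1-fold and 24.1-fold higher, and erythroid-like cells had 0.531 CPM.

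Cd36 (ENSMUSG00000002944, chromosome 5, 17781690 to 17888801, minus strand), the fatty acid scavenger receptor, showed 1332 CPM in endothelial-like, 11.0 in erythroid-like and 5.02 in LEPR stromal cells, and none in the other classes. LEPR stromal cells were 265-fold below the endothelial-like class and 2.20-fold below the erythroid-like class (log2 -1.14, interval -1.74 to -0.59). That value was -0.92 in lane 1 alone, -2.32 without called doublets and -3.96 as a mean over cells. Of their 54 Cd36 UMIs in 22 cells, 19 came from a single cell that also held 63 UMIs of endothelial markers. Plin1 (ENSMUSG00000030546, chromosome 7, 79720218 to 79732903, minus strand), which coats the droplet of mature fat cells, gave 18 UMIs in 7 stromal cells, or 1.67 CPM (0.766 to 3.18). It gave 3 UMIs in all erythroid-like cells and none elsewhere. All 7 of those stromal cells also held Adipoq, Lpl and Apoe, and 3 of them Fabp4.

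Counted together, 6 of the 9 genes were at least 2-fold higher in LEPR stromal than in fibroblast-like cells and none lower, where 21.3% of all genes tested were higher and 9.43% lower. Against endothelial-like cells 5 were higher and 2, Fabp4 and Cd36, were lower, beside 16.9% and 13% of all genes. Against erythroid-like cells 8 were higher and Cd36 was lower, beside 48.3% and 17%, and against megakaryocyte-like cells 7 were higher and none lower, beside 41.4% and 15.7%. All genes tested are those with at least 10 UMIs over both classes, as the mean of the lanes. Many members called higher reached that minimum through the stromal class: Adipoq, Pparg, Cebpa and Fabp4 had under 10 in fibroblast-like cells, Adipoq, Cebpa and Cebpb in endothelial-like cells, Plin1 in erythroid-like cells, and Pparg, Cebpa and Fabp4 in megakaryocyte-like cells. The counts are therefore a description, and nothing is read from them.

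Shares of cells depend on depth, and a LEPR stromal cell had a median of 2594 UMIs against 14358 for an erythroid-like cell. In lane 1 cells thinned to 1000 UMIs, which kept 1750 stromal and 6214 erythroid-like cells, Lpl was in 78.7% of stromal cells, Apoe in 78.5%, Adipoq in 55.3%, Cebpa in 14.9%, Cebpb in 13.6%, Pparg in 5.37% and Fabp4 in 3.66%. In erythroid-like cells, a type that should lack most of these transcripts, the shares were 0.612% for Lpl, 1.22% for Apoe, 0.306% for Adipoq, 0.0322% for Cebpa, 0.0161% for Pparg and 0.0483% for Fabp4. Cebpb was in 1.46% of them, and Cd36 in 1.17% of them and 0.4% of stromal cells. Fibroblast-like cells had Apoe in 35.5%, Lpl in 19.4% and Cebpb in 10.8% of 93 cells. Before thinning they had no Fabp4 UMI in 94 cells, which allows a share of cells with a UMI of up to 3.85%.

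The members in erythroid-like barcodes were also set beside Cxcl12, a gene of the gate and so high in the stromal class by choice. Per 1000 Cxcl12 UMIs, erythroid-like barcodes held 46.8 Adipoq, 123 Lpl, 7.04 Cebpa and 2.32 Pparg UMIs, beside 51.8, 120, 7.37 and 2.89 in the stromal class, and 213 Apoe UMIs beside 139. Fabp4 was 8.21 beside 3.42, and Plin1, on 3 erythroid UMIs, 2.89-fold more, while Lepr, the other gate gene, was 165 beside 70.7, or 2.34-fold more. Cebpb and Cd36 were farthest apart, with 228 and 171 UMIs beside 6.05 and 0.226, 37.6-fold and 754-fold more. The part of free RNA in these counts was not tested. In 5 ranges of the erythroid-like cells by globin share, a mark of red cell maturation, Cd36 went from 2.94 CPM under 0.5% globin through 5.36, 7.97 and 12.2 to 43.4 CPM at 6% or more. Over the same ranges Cebpb was 16.9, 16.2, 14.6, 13.1 and 13.1 CPM. Its interval in the lowest range (15.3 to 18.7) overlapped that in the highest (10.9 to 15.5). It did not overlap that at 2.5 to 6% globin (11.9 to 14.5). Adipoq lay between 2.58 and 3.18 CPM.

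**Figure D2:**
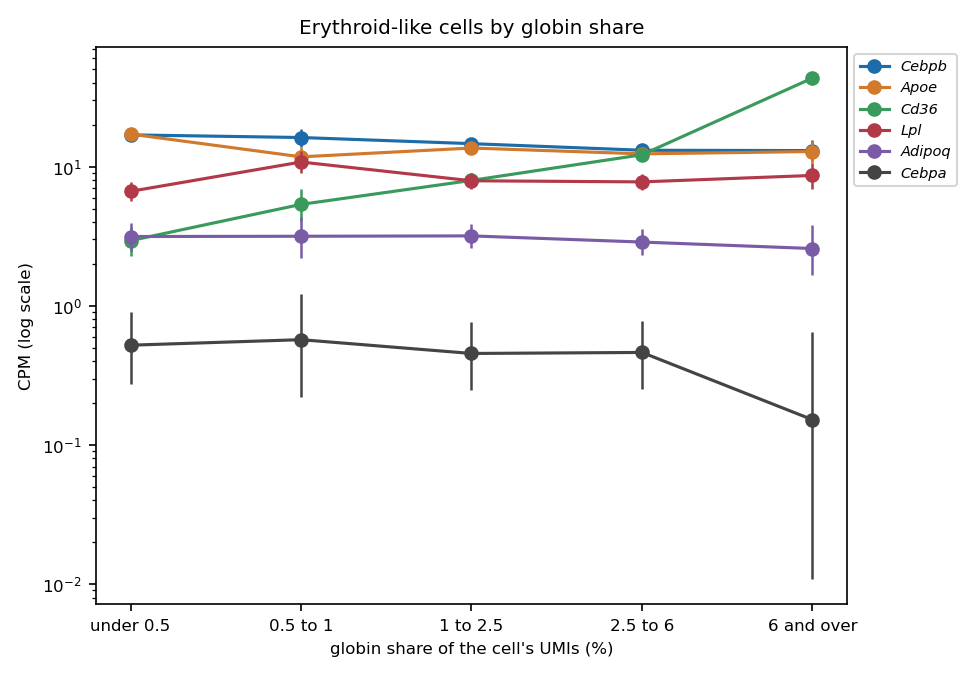
Level of 6 of the genes in erythroid-like cells in 5 ranges of globin share (percent of the cell's UMIs), in CPM on a log scale with 95% counting intervals. Cd36 rises at each step, from 2.94 to 43.4 CPM. Cebpb goes from 16.9 to 13.1 CPM. Its intervals at the ends overlap, but that under 0.5% globin is clear of that at 2.5 to 6%.

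Within LEPR stromal cells the abundant members varied over a wide range. The median cell had 832 CPM of Adipoq, 1900 of Lpl and 2199 of Apoe, and between the 10th and the 90th percentile of cells Lpl differed 14.0-fold and Apoe 16.4-fold, while Adipoq had no UMI at the 10th percentile. The 188 cells with the most of a gene held 36.8% of its Adipoq, 36.9% of its Lpl and 36.5% of its Apoe UMIs. For the factors the same share was 44.8% for Cebpa, 47.1% for Cebpb and 71.9% for Pparg, and all Fabp4 UMIs sat in fewer cells than that. In thinned cells the variance over the mean, which is 1 for pure counting noise, was 3.08 for Apoe, 2.58 for Lpl, 2.17 for Fabp4 and 1.78 for Adipoq, and between 1.08 and 1.14 for Cebpa, Cebpb and Pparg.

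Most cells carried several members. Of 1877 cells 14 had none, 461 had 3, 628 had 4, 397 had 5 and 1 had all 9. Adipoq, Lpl and Apoe were all present in 1482 cells, 79.0%, while 2 of 94 fibroblast-like cells, none of 60 endothelial-like cells and 1.05% of erythroid-like cells had all of them. At 1000 UMIs the numbers were 692 of 1750 stromal cells, 39.5%, no fibroblast-like cell and 3 of 6214 erythroid-like cells.

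Co-detection of the members was set beside the number expected under independence in the thinned cells, as a description over 36 pairs. In 4 pairs the share of cells with the second gene had intervals that did not overlap between cells with and without the first, and all 4 were positive. Lpl was in 83.3% of cells with Adipoq and 73.1% of cells without, and Apoe in 85.4% and 69.8%. Apoe was in 80.6% of cells with Lpl and 70.4% without, and Fabp4 in 4.28% and 1.34%. These excesses were small, between 1.03 and 1.17 times the number of cells expected if detection were independent, and with lane 2 used in place of lane 1 the count of pairs was 7. Pparg and Cebpa, which maintain each other in fat cells, met in 16 cells where 14.0 would be expected, and Cebpa and Cebpb in 25 where 35.5 would be, with intervals that overlapped.

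**Figure D3:**
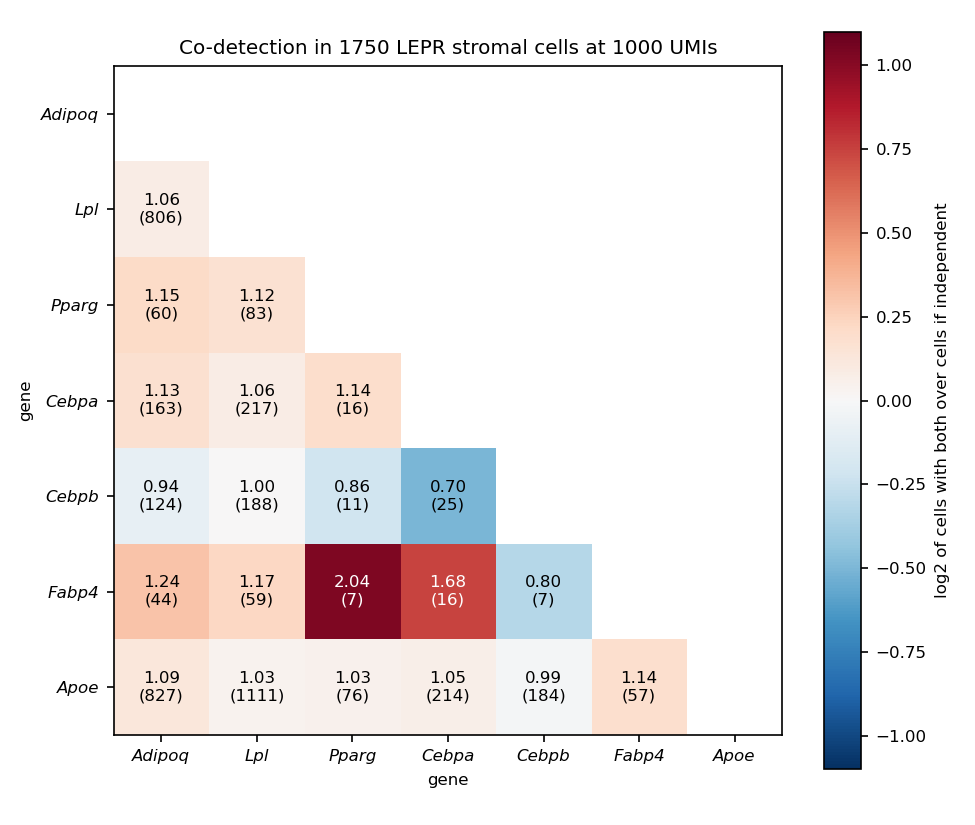
Co-detection of 7 of the genes in 1750 LEPR stromal cells thinned to 1000 UMIs. Each square gives the cells with both genes over the number expected if detection were independent, with the cells counted in brackets, and colour is the log2 of that ratio. Adipoq, Lpl and Apoe lie between 1.03 and 1.09, and Fabp4 with Pparg, on 7 cells, reaches 2.04.

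Since PPARγ is the factor that commits cells to fat, cells with and without a Pparg UMI were set side by side at 1000 UMIs. The 94 cells with Pparg had 3511 CPM of Lpl and the other 1656 cells 2479 CPM, a log2 ratio of 0.50 (0.34 to 0.66), and in lane 2 it was 0.24 (0.07 to 0.41). No other member had an interval clear of 0: Adipoq was at 0.11 (-0.17 to 0.39), Apoe at 0.09 (-0.08 to 0.27), Cebpa at 0.19 (-0.59 to 0.88), Cebpb at -0.41 (-1.43 to 0.46) and Fabp4 at 0.91 (-0.20 to 1.85). At 2000 UMIs Fabp4 joined Lpl, with 0.78 (0.16 to 1.35). A cell without a Pparg UMI cannot be called negative, since at this depth most transcripts of a gene at 64.2 CPM are missed. Of 62 list genes with at least 10 UMIs, 4 had a 95% interval clear of 0, with no adjustment for the number compared. Fabp5 was higher in the cells with Pparg (log2 1.55, interval 0.15 to 2.72), and so was Hes1, a restraint on adipogenesis (0.50, 0.09 to 0.89). Cebpd, an early factor, was lower (-0.63, -1.28 to -0.04). Of the osteogenic genes, Ibsp, a matrix protein of the osteoblast line, was lower, 2255 against 2887 CPM (-0.36, -0.56 to -0.16), while Spp1 (0.18, -0.05 to 0.40), Bmp4 (0.53, -0.06 to 1.07), Phex (0.11, -0.44 to 0.61) and Runx2 (-0.49, -1.28 to 0.21) had intervals that held 0.

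After Plin1 and Cd36, Fabp4 was detected in the smallest share of LEPR stromal cells, and some of those cells held endothelial transcripts. The 24 stromal cells with 10 or more Fabp4 UMIs held 53.7% of them, and 7 of these cells held 125 endothelial marker UMIs in all. Of the 10 cells with the most Fabp4, the cell at rank 2, with 37 Fabp4, 63 endothelial and 19 Cd36 UMIs but 7 of Lpl, and the cell at rank 10, with 55 endothelial UMIs and 9 of Lpl, stood apart from the other 8, which had 30 to 96 Lpl UMIs and at most 2 endothelial. Over the whole class, 19 of 20 endothelial markers had a UMI, 36.1 CPM in sum against 11530.5 CPM in endothelial-like cells. Without the 174 cells that held any such UMI, Fabp4 was 67.3 CPM, Cd36 3.18 CPM and Adipoq 1161 CPM.

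The 67 stromal cells with at least 3 Fabp4 and no endothelial UMI, which held 67.3% of all Fabp4 UMIs of the class, were set against the 1578 cells with neither. Their gate genes were Cxcl12 22496 and 22086 CPM and Lepr 1199 and 1593 CPM, and their median depth 3556 and 2465 UMIs. Lpl was 5043 CPM in the first set and 2470 CPM in the second (log2 1.03, interval 0.94 to 1.11). Pparg was 134 and 60.9 CPM (1.14, 0.58 to 1.66), and Cebpa 318 and 155 CPM (1.03, 0.68 to 1.37). Apoe, at 5567 and 2901 CPM, was just short of 2-fold (0.94, 0.86 to 1.02), and Adipoq, at 1483 and 1135 CPM, differed less (0.39, 0.23 to 0.54). Cebpb did not differ beyond counting error (0.37, -0.11 to 0.82). Plin1 was 17.7 and 0.701 CPM, a log2 ratio of 4.66 with an interval of 2.21 to 7.39, on a mean of 4.5 and 3 UMIs a lane.

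Thus 4 of the 7 members with at least 10 UMIs, namely Lpl, Pparg, Cebpa and Cd36, were at least 2-fold higher in these cells and none was lower, beside 5.08% of all 12166 genes tested higher and 8.7% lower. Cd36 rests on few UMIs (2.01, interval -0.78 to 4.06). Among cells with 2000 UMIs or more Lpl was at 0.98 and Cebpa at 0.99, just under 2-fold, and with endothelial UMIs allowed both were at 0.92. The median of the 7 was 1.03 and that of all genes 0.06. These sets were chosen by a measured value after the distribution of Fabp4 had been seen.

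**Figure D4:**
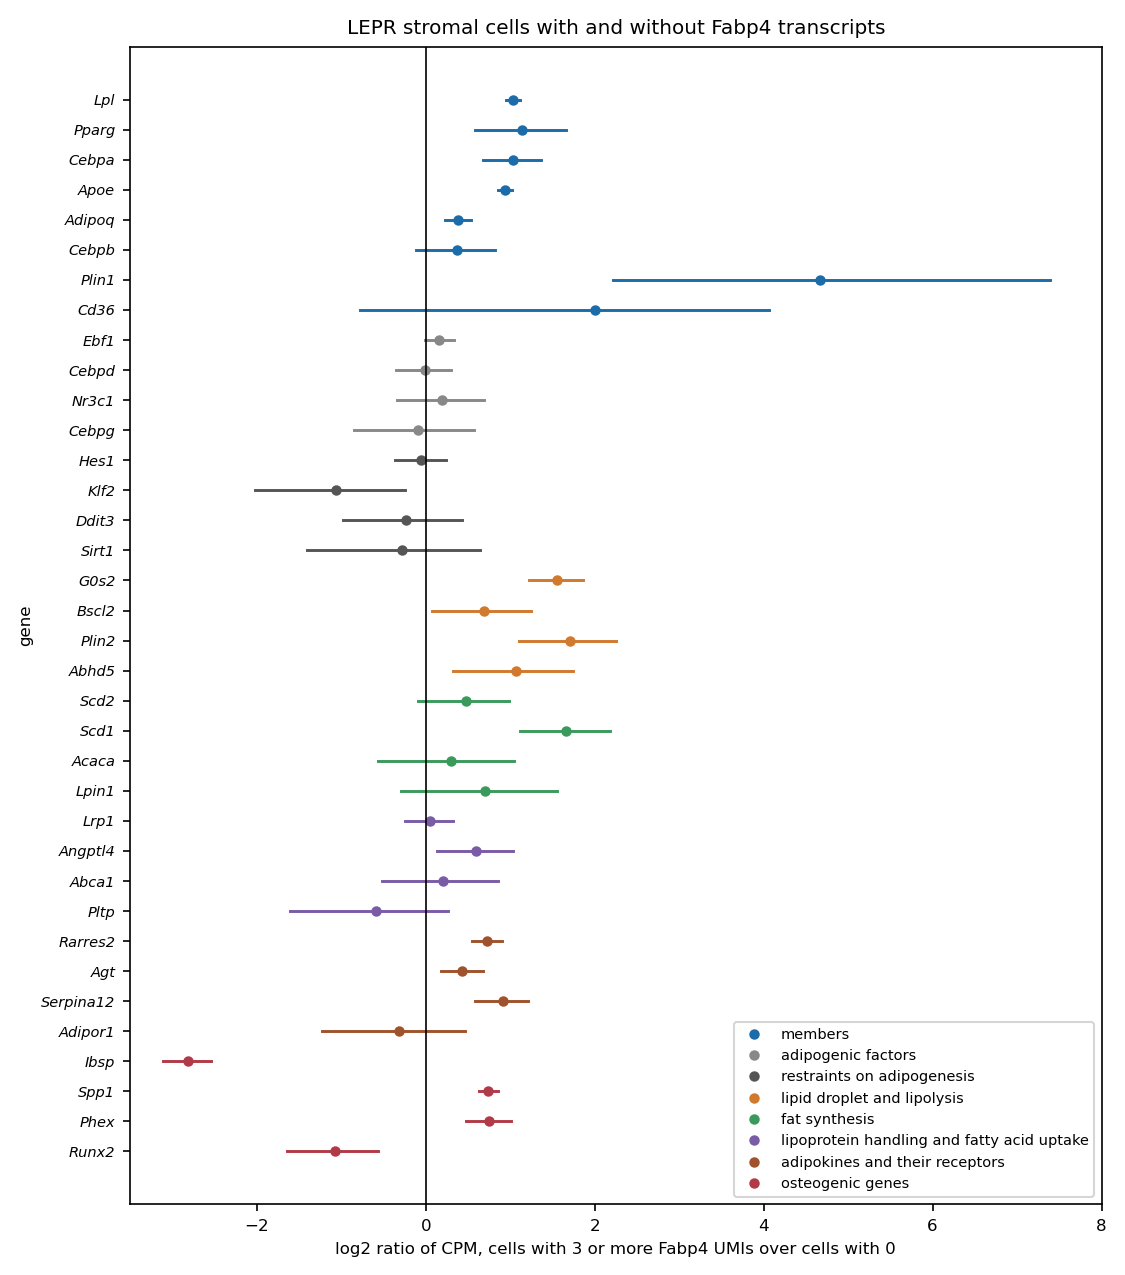
Log2 ratio of CPM between 67 LEPR stromal cells with 3 or more Fabp4 UMIs and 1578 with 0, all without endothelial UMIs, with 95% counting intervals, for 8 of the 9 genes and the leading genes of 7 lists. G0s2, Plin2 and Scd1 lie to the right of 0, among 3 of 9 droplet and 3 of 12 fat synthesis genes that were at least 2-fold higher. Of the osteogenic genes shown, Ibsp and Runx2 lie to the left and Spp1 and Phex to the right.

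Genes of lipid storage were measured in the same sets, and their counts stand beside 5.08% of all genes higher and 8.7% lower. Of 9 lipid droplet and lipolysis genes 3 were at least 2-fold higher: G0s2, an inhibitor of the main triglyceride lipase, at 379 and 129 CPM (log2 1.55, 1.22 to 1.86), Plin2, the droplet coat of many cell types, at 126 and 38.8 CPM (1.70, 1.11 to 2.26), and Abhd5, a lipase activator (1.07, 0.32 to 1.74). Of 12 fat synthesis genes Scd1, Me1 and Dgat1 were higher and Gpam was lower, and Scd1, the stearoyl desaturase, stood at 146 and 46.0 CPM (1.66, 1.12 to 2.18). Of 11 genes of lipoprotein handling Lmf1, Apoc1 and Fabp5 were higher, with Fabp5, a relative of Fabp4, at 96.6 and 27.2 CPM (1.83, 1.14 to 2.47). Of 6 adipokines and receptors none was higher or lower (median 0.10, all genes 0.06). Upstream, of 13 further adipogenic factors none was higher and Zfp423 and Stat5a were lower, and of 6 restraints Klf2 was lower. Of the genes called in these lists, Me1, Gpam, Lmf1, Apoc1 and Zfp423 had intervals that held 0. Stat5a rests on a mean of 1 UMI in the Fabp4 cells. Ebf1, at 1205 and 1077 CPM, was the most abundant factor (0.16, -0.01 to 0.33).

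Osteogenic genes divided. Of 10 tested, Runx2, Sp7, Alpl, Ibsp and Chl1 were at least 2-fold lower in the Fabp4 cells and none higher, beside 8.7% and 5.08% of all genes, with a median of -1.03 where that of all genes was 0.06. Ibsp was 426 and 3004 CPM (log2 -2.82, interval -3.10 to -2.54) and Runx2, the master factor of the osteoblast line, 122 and 258 CPM (-1.08, -1.64 to -0.56). The interval of Sp7 held 0 (-1.32, -3.62 to 0.26), and Alpl rests on a mean of 0.5 UMIs in the Fabp4 cells. Spp1, at 2838 and 1698 CPM, was higher instead (0.74, 0.63 to 0.85), and so was Phex (0.75, 0.48 to 1.02), short of 2-fold. Further genes, picked after their values were seen, were higher in the Fabp4 cells. Ccl2, a chemokine, was 6.75-fold higher. Mrap, the accessory protein of melanocortin receptors, was 6.29-fold higher, with 250 and 39.8 CPM.

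Over the whole class the other genes of the pathway are described by counts, to be read against all genes: 21.3% higher and 9.43% lower than in fibroblast-like cells with a median log2 of 0.25, 16.9% and 13% against endothelial-like cells with -0.21, and 48.3% and 17% against erythroid-like cells with 1.01. Of 13 tested adipogenic factors 4 were at least 2-fold higher and 1 lower than in fibroblast-like cells (median log2 0.43), 5 higher and none lower than in endothelial-like cells (0.27) and 11 higher and 1 lower than in erythroid-like cells (5.76). The 4 were Klf15, Nr1h3, Zfp467 and Stat5a, and Ebf2 was the lower factor. These 4 stood at 4.55, 9.10, 6.82 and 5.69 CPM in fibroblast-like cells, where 3 counts give 6.82 CPM. Ebf1, which precedes Pparg, stood at 1053 CPM, and Cebpd, the partner of Cebpb, at 344 CPM, below the 606 CPM of fibroblast-like cells. Of 6 restraints on adipogenesis Klf2, Zfp521 and Foxo1 were lower than in fibroblast-like cells and none higher (median -0.67). Against endothelial-like cells 1 of 7 restraints was higher and 3 lower (-0.91), and against erythroid-like cells 4 were higher and 1 lower (4.51). Klf2, which represses Pparg, was 99.4 CPM in LEPR stromal, 515 in fibroblast-like and 1154 in endothelial-like cells, while Hes1, at 407 CPM, was within 2-fold of both.

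Storage genes went both ways. Of 9 lipid droplet genes G0s2 and Bscl2 were higher and Plin3 and Mgll lower than in fibroblast-like cells (median 0.37, all genes 0.25), a share near the 21.3% of all genes higher, with G0s2 at 145 CPM and Plin2 at 44.2 CPM. Of 12 fat synthesis genes Acaca, Me1, Dgat2, Agpat2 and Gpam were higher and Acly was lower (median 0.43, beside 21.3% and 9.43% of all genes), with Scd2 at 92.8, Scd1 at 51.2 and Acaca at 49.4 CPM. Of the 4 most abundant genes of lipoprotein handling Angptl4 was higher and Pltp lower, and Lrp1 and Abca1 were within 2-fold. Angptl4, a secreted inhibitor of Lpl, was 124 CPM against 23.9 CPM in fibroblast-like cells. The receptor Lrp1, which binds Apoe, was 407 against 727 CPM, the cholesterol exporter Abca1 70.1 against 109 CPM, and the phospholipid carrier Pltp 66.2 against 175 CPM.

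Of 7 adipokines and receptors tested Agt, Serpina12 and Adipor2 were higher and Cdh13 was lower than in fibroblast-like cells (median 0.96), beside 21.3% and 9.43% of all genes. Agt, angiotensinogen, was 457 CPM against 20.5 CPM, and Serpina12, or vaspin, 211 CPM against 4.55 CPM, which is under 3 counts. Rarres2, or chemerin, was within 2-fold, at 721 and 507 CPM. The receptor Adipor1 was 67.4 CPM in stromal and 58.5 CPM in erythroid-like cells. List genes given without a value were picked with their values in view.

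Osteogenic genes were detected in the same class, and their co-detection with the members differed from gene to gene. Of 12 osteogenic genes 6 were higher and 5 lower than in fibroblast-like cells (median -0.04), beside 21.3% and 9.43% of all genes and an all-gene median of 0.25, with Ibsp at 2969 CPM, Spp1 at 1717 CPM, Phex, a phosphate regulator, at 315 CPM and Runx2 at 247 CPM in the stromal class. At 1000 UMIs Runx2 was in 20.6% of cells with Adipoq and 21.5% of cells without. Spp1 was in 61.8% and 53.5%, without overlap of the intervals, and Col1a1 in 15.7% and 20.8%, with overlap. In cells with Fabp4, Runx2 was in 10.9% and Col1a1 in 6.25%, and in cells without it in 21.4% and 18.4%, and the Col1a1 intervals did not overlap. Col1a1, Bmp4 and Fabp5 were picked with their values in view.

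Clustering of the stromal cells with the 9 members left out gave 7 sub-clusters, and what follows describes them without a test. The smallest, of 40 cells, was led by Kit, a growth factor receptor at 437 CPM, with Hsd11b1, which activates glucocorticoids, and Mrap. Fabp4, which was not used, was at 804 CPM there (670 to 957) and at 24.5 to 108 CPM in the other 6. The same cells had the highest Apoe, 6371 CPM, the highest Lpl, 4058 CPM, Pparg at 179 CPM (119 to 258) and Cebpa at 268 CPM (193 to 362), with no called doublet and endothelial markers at 31.9 CPM. The sub-cluster of 69 cells had the lowest Adipoq, 545 CPM, and the lowest Lpl, 1272 CPM, and 52 of its cells were called doublets, with 5431 CPM of erythroid markers and Mki67, a cell cycle gene, among its leading genes. The leading genes named here were picked after their values were seen.

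**Figure D5:**
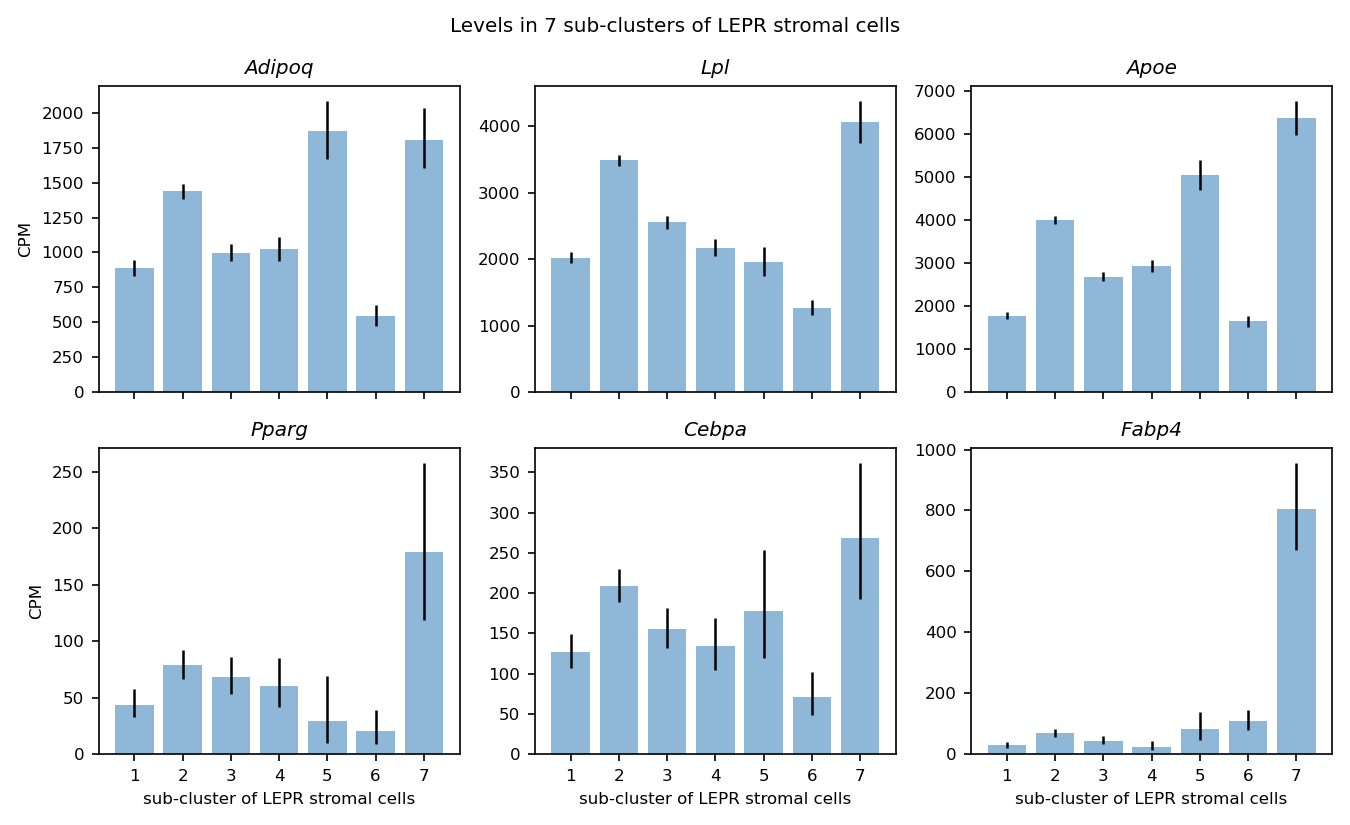
Level of 6 of the genes in 7 sub-clusters of LEPR stromal cells, clustered without the 9 genes, as CPM of summed counts with 95% counting intervals. Sub-cluster 7, of 40 cells, has Fabp4 at 804 CPM and the highest Lpl, Apoe and Pparg, and sub-cluster 6, of 69 cells with 52 called doublets, the lowest Adipoq and Lpl.

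The remaining sub-clusters differed by degree. The largest, of 569 cells, had Adipoq at 887 CPM and Apoe at 1773 CPM, and the second, of 546 cells, 1437 CPM and 3997 CPM with Lpl at 3485 CPM and Serpina12 2.01-fold above the other cells. The 366 cells led by the immediate early genes Fos, Fosb and Egr1, which dissociation can induce, had the highest Cebpb, 184 CPM (159 to 213), which overlapped the 167 CPM (134 to 206) of the 157 cells led by Col6a3 and the 137 CPM (85.5 to 209) of the 40 cells led by Kit, and the part of dissociation in it was not tested. The shallowest, of 130 cells with a median of 1067 UMIs, had Adipoq at 1870 CPM.

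LEPR stromal cells held 1952 CPM of globin and 1063 CPM of erythroid markers. Adipoq, Lpl and Apoe were lower where globin was higher, and so were the gate genes. The part of erythroid RNA in these levels was not tested. In cells under 1000, of 1000 to 2000, of 2000 to 5000 and of 5000 or more UMIs, Adipoq was 1169, 901, 1210 and 1087 CPM, with no order, while its share of cells was 55.6%, 69.7%, 90.8% and 94.6%. The 1801 stromal cells with under 0.5% globin had Adipoq at 1170 CPM and Lpl at 2720 CPM, the 68 with 0.5 to 2% had 694 and 1185 CPM, and the 8 with more had 498 and 1109 CPM. Over these 3 sets Cxcl12 was 22634, 12061 and 10833 CPM, and Lepr 1596, 930 and 860 CPM. The median depth of the sets was 2611, 987 and 4925 UMIs. Doublets called by Scrublet were 57 of the LEPR stromal cells, 1 of the fibroblast-like and none of the endothelial-like cells.

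Across 19 clusters of all cells the genes whose CPM followed each member most closely, given as Pearson's r over clusters that share 1 library, were Mc5r for Adipoq (0.981), Notch3 for Lpl (0.984), Ccbe1 for Cebpa (0.986) and Syde1 for Pparg (0.985). Mrap was closest to Plin1 (0.788), Slc9a3r2 to Fabp4 (0.928), Ifngr2 to Apoe (0.975), Acbd4 to Cebpb (0.906) and Rsad2 to Cd36 (0.888).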

How the data were processed

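Single-cell RNA was measured in 1 pool of 3 mice, sorted and run by the authors on 10x Chromium 3′ chemistry. It was deposited as replicates 1 and 2, which are called lanes here. Cell Ranger was used for alignment and counting, with mm10 as the build in the submitters' processing notes, and what the authors deposited are UMI counts of each gene in each called cell, not normalized. The header of the counts names version 3.0.2, and the methods another. Depth was 116827845 UMIs in lane 1 and 120556381 in lane 2. The study clustered fewer cells than the barcodes in the files.

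Counts were summed per barcode with Python 3.11.15, numpy 2.4.6, scipy 1.17.1 and pandas 2.3.3, clusters made with scanpy 1.11.5 (3000 variable genes, 30 components, 15 neighbours, resolution 0.8) and figures with matplotlib 3.10.9. Because the same molecule can appear in each lane, the lanes' mean count underlies the 95% intervals of levels and ratios outside thinned cells. These are exact Poisson for levels and conditional binomial for ratios. The mean count also underlies the limit of 3 counts set for a gene at 0 in ratios. Intervals of shares are Clopper-Pearson. A barcode outside the LEPR gate joined a class if 3 of its list's genes had a UMI and the list summed to 1000 CPM (erythroid-like 5000 CPM). Of 22 erythroid markers 21 were found. Scrublet, at an expected rate of 8%, called 217 of 9507 lane 1 barcodes (2.28%). These were kept, and left out as an alternative. The functions were tested on simulated data. A gene past a 2-fold difference in CPM is called higher or lower, with no p-value, since there is 1 biological sample.

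Named are the 9 members, gate and check genes, and up to 4 genes per list by level in LEPR stromal cells, or where a role stands beside a member. The members and lists were chosen with earlier results of these data known. Coordinates are from GENCODE M21 (GRCm38), which holds 32158 of the gene identifiers. Alternatives were other gates and filters, each lane alone, thinning, doublets left out, other scalings and clusters in place of gates. The sets by Fabp4 UMIs were added after seeing the data. The count of lipoprotein handling genes against fibroblast-like cells is not reported here.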

Additional observations from a re-analysis of the deposited data

Results flagged for a closer look

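The report leaves out barcodes over the mitochondrial limit, and 19 of these pass the Lepr and Cxcl12 gate, with a median of 27.3% mitochondrial UMIs and 2384 UMIs. They were singled out because members had a mean of over 3 counts, the limit set for a gene at 0. Their levels were Adipoq 853 CPM, Lpl 1638 CPM, Pparg 68.7 CPM, Cebpa 78.5 CPM, Cebpb 98.1 CPM and Apoe 1687 CPM, and Fabp4 had 3 UMIs and Plin1 none. Lpl and Apoe were below the levels of the kept cells, with intervals of 1306 to 2029 CPM and 1349 to 2084 CPM, and the intervals of Adipoq, Pparg, Cebpa and Cebpb overlapped those of the kept cells.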

How the results depend on the processing

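The counts of members at least 2-fold higher kept within 1.5 times under all 67 alternatives: 4 to 7 against fibroblast-like, 4 to 5 against endothelial-like, 7 to 8 against erythroid-like and 5 to 8 against megakaryocyte-like cells. Of 455 recomputed log2 ratios between classes 370 moved by less than their interval, 84 moved by more, and 1 whose interval excluded 0 changed sign, Cebpb against fibroblast-like cells, at 0.13 in lane 1 thinned to 1000 UMIs (the cause was not tested). Pparg against endothelial-like cells, whose interval held 0, ranged from -0.97 to 0.87. Median-of-ratios scaling shifts all genes by -0.04, 0.47, -0.83 and 0.11 in the order of the classes above. Pairs of members without overlap were 4 to 7 when 1 lane was used at a time, and the members that differed with Pparg were 2 at 2000 UMIs. With clusters in place of gates, no endothelial-like cluster was found and that comparison has no value. No paired analysis was possible because the lanes hold the same cells and no result comes from a test. Depth limits Plin1, Cd36 and every value of the 60 endothelial-like cells.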
